A study of Mus musculus with 6 samples.

Results

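The genes described here are the 5 mouse genes for AP-2 transcription factors (Tfap2a, Tfap2b, Tfap2c, Tfap2d and Tfap2e) and Kctd1 and Kctd15, whose proteins bind AP-2 factors and repress them. They were chosen by symbol in GENCODE M21, and all 7 were found among the 46983 genes of the count table. RNAseq was performed on GFP-positive neural crest cells (NCCs) sorted at E11.25 from 3 control embryos and 3 embryos deficient in BAF155 and BAF170, core subunits of the BAF chromatin remodeling complex encoded by Smarcc1 and Smarcc2. All 6 embryos were Wnt1 Cre/+ and Rosa26 mTmG/+. The controls were flox/+ and the deficient embryos flox/flox at both BAF155 and BAF170. Both groups therefore carried Cre, the reporter that turns GFP on after recombination, and at least 1 floxed copy of each gene, so the comparison is of loss of both copies with loss of 1. Wnt1-driven Cre acts in the dorsal neural tube as well as in the crest that leaves it, and GFP stays on in all descendants of the recombined cells. The p-values measure the spread between the 3 libraries of a group. Among bulk libraries, a smaller share of cells of a type and less RNA per cell cannot be told apart.

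AP-2 factors bind DNA as dimers at GC-rich palindromes and act at several steps of neural crest development, from the neural plate border to the skeleton of the face. Tfap2a and Tfap2b are the paralogs best known from migrating crest, and mutation of their human counterparts causes branchio-oculo-facial syndrome and Char syndrome. Kctd15 blocks neural crest induction by binding the activation domain of AP-2 alpha, and Kctd1, its close relative, also represses AP-2 activity.

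Library totals ran from 8191219 to 11661941 counts in controls and from 12633319 to 19808620 in deficient samples, and the 10 most abundant genes held 21.8% to 34.99% and 16.2% to 23.4% of them. Levels are given as CPM, counts scaled to TMM-normalized library sizes. The thresholds of the study were kept: genes count as called where the edgeR quasi-likelihood test gave an adjusted p (Benjamini-Hochberg, 13961 tested genes) of 0.1 or less, the log2 fold change was 0.58 or more in size and the level averaged 2 CPM or more. The study applied them in limma, so its test differed. Here 681 genes were called lower and 8 higher with edgeR, and 829 and 7 with limma-voom. The study reported more genes, a larger part of them higher, and the cause of that difference was not tested. Smarcc1 ranged from 35.1 to 55.0 CPM in controls and from 24.5 to 29.4 CPM in deficient samples and was called lower (log2 fold change −0.71, adjusted p = 0.0676 in edgeR), whereas Smarcc2 ranged from 89.9 to 92.9 and from 82.3 to 86.8 CPM and was not called (log2 fold change −0.11, adjusted p = 0.251 in edgeR). Counts over a whole gene include exons outside the floxed part, and the source of the remaining counts was not tested. In all libraries the 12 macrophage markers summed to far more than the crest markers, 12105 to 14037 CPM in controls and 14169 to 15453 CPM in deficient samples, although the label of the cells is neural crest. The crest, sensory, glial and neural tube markers, 75 genes in all and here called embryonic markers, summed to 543 ± 152 CPM in controls and 310 ± 52.2 CPM in deficient samples (SD, n = 3). Their part in the differences below was not tested, and the members are also given against their sum.

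Of the 7 genes, 4 passed the filter on low counts (Tfap2a, Tfap2b, Kctd1 and Kctd15). All 4 were called lower in the deficient libraries, which are labelled as sorted NCCs but also hold the abundant macrophage transcripts described above. Over all tested genes, 4.88% were called lower and 0.0573% higher, and 52.3% had a log2 fold change below 0. All 3 deficient libraries lay below all 3 controls for Tfap2a, Tfap2b and Kctd1 but not for Kctd15, and 16.4% of tested genes had that pattern.

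Promoter windows of 300 bases, 250 before to 50 after a start site, were read for 5 of the 7 genes from RefSeq (GRCm38.p6). They show how often the palindrome that AP-2 factors read occurs at the members themselves, and 4 windows of called genes are printed, 5′ to 3′ on the strand of the gene. Capitals mark matches to GCCNNNGGC or GCCNNNNGGC, palindromic forms of the AP-2 consensus. Each form reads the same on both strands, and the 2 can overlap within a longer GC-rich run. The Tfap2b window lies at chr1:19211804-19212103 (plus strand), that of Tfap2a at chr13:40734871-40735170 (minus strand), and those of Kctd15 at chr7:34655460-34655759 and chr7:34652883-34653182 (minus strand).
Tfap2b: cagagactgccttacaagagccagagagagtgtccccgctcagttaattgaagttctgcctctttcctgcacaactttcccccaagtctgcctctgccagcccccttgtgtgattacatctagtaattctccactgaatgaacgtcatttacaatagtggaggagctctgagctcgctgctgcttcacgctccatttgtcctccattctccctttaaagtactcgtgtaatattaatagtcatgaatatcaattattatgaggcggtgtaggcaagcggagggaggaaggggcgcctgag
Tfap2a: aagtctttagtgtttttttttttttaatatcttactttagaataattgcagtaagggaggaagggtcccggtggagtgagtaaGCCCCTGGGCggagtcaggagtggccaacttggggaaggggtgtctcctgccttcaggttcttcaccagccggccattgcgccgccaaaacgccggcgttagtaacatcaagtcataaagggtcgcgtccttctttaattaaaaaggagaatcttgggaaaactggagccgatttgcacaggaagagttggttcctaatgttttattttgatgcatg
Kctd15, first window: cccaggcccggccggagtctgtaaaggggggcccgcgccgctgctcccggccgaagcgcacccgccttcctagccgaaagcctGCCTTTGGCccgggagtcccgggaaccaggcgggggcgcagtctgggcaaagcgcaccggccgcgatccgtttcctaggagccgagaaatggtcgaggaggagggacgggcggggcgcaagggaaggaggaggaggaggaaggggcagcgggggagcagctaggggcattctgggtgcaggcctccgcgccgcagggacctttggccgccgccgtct
Kctd15, second window: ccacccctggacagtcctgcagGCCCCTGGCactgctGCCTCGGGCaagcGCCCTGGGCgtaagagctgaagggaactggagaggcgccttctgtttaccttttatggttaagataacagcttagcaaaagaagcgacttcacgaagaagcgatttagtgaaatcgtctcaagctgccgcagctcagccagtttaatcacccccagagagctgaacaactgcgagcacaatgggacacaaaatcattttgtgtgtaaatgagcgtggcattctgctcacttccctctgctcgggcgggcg

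The first form occurred in 5450 of 32851 mouse windows (16.6%) and the second in 4860 (14.8%). Neither was found in the Tfap2b window, and Tfap2a held 1 match of the second form, GCCCCTGGGC, 167 bases before its start site. The first Kctd15 window held GCCTTTGGC, also 167 bases before its start. The second held GCCCCTGGC, GCCTCGGGC and GCCCTGGGC at 228, 213 and 200 bases before the start, and 3 or more matches of this form occurred in 0.444% of all windows. The windows of Tfap2d and Tfap2e, the other Tfap2a window and the remaining Kctd15 window had 0 matches of either form. Among tested genes with a window, 32.3% of 496 called lower and 28.8% of all 10094 held the first form, with a median GC content of 65% and 62%. A match describes letters in a window and was not linked here to binding.

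Tfap2b, on the plus strand of chromosome 1 (ENSMUSG00000025927.13, GRCm38 chr1:19208914-19238576), was the most abundant AP-2 gene in controls, with 108, 135 and 117 counts in control libraries 1, 2 and 3 and 77, 45 and 71 counts in deficient libraries 1, 2 and 3. On the CPM scale these were 11.5, 18.1 and 9.60 in controls and 6.03, 2.75 and 3.37 in deficient samples. The highest deficient library was below the lowest control, and control 2 stood highest. The mean fell from 13.0 ± 4.44 to 4.05 ± 1.74 CPM (SD, n = 3), leaving 31.0% of the control level. The log2 fold change was −1.70 (SE 0.33, adjusted p = 0.0583, edgeR quasi-likelihood test with Benjamini-Hochberg adjustment), and 1.21% of tested genes had a lower one. An exact two-sided permutation test over the 6 libraries gave p = 0.1, the smallest that 3 against 3 allows.

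Tfap2a, whose loss in mice leaves the neural tube and face open, lies on the minus strand of chromosome 13 (ENSMUSG00000021359.15, GRCm38 chr13:40715302-40738376). It had 65, 79 and 65 counts in the controls and 46, 41 and 68 counts in the deficient libraries. These correspond to 6.91, 10.6 and 5.33 CPM in controls and 3.60, 2.51 and 3.23 CPM in deficient samples. The groups did not overlap on the CPM scale, although deficient 3, the deepest library, had as many raw counts as the controls. The mean fell from 7.61 ± 2.68 to 3.11 ± 0.558 CPM (SD, n = 3), to 40.9% of control. The log2 fold change was −1.27 (SE 0.28, adjusted p = 0.0559 in edgeR), with exact permutation p = 0.1, and 4.06% of tested genes had a lower fold change.

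Kctd1, on the minus strand of chromosome 18 (ENSMUSG00000036225.14, GRCm38 chr18:14968685-15151446), encodes a BTB-domain repressor of AP-2 alpha that is mutated in scalp-ear-nipple syndrome. Controls held 41, 33 and 35 counts and deficient libraries 21, 23 and 26 counts. In CPM the controls were at 4.36, 4.41 and 2.87 and the deficient libraries at 1.64, 1.41 and 1.23, the narrowest spread among the 4 tested members in deficient samples. Kctd1 fell from 3.88 ± 0.875 to 1.43 ± 0.206 CPM (SD, n = 3), to 36.8% of control. Its log2 fold change was −1.44 (SE 0.30, adjusted p = 0.0534 in edgeR), with exact permutation p = 0.1 and 2.62% of tested genes below it. A processed pseudogene on the opposite strand, Gm6304, lies inside the span of Kctd1 and overlaps 0 of its exons.

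Kctd15, on the minus strand of chromosome 7 (ENSMUSG00000030499.9, GRCm38 chr7:34639014-34656732), encodes the repressor of AP-2 that limits the crest domain. It held 60, 68 and 59 counts in controls and 64, 50 and 59 counts in deficient libraries. On the CPM scale the controls were at 6.38, 9.10 and 4.84 and the deficient libraries at 5.01, 3.06 and 2.80. Deficient 1 lay above control 3, so the groups overlapped. The mean was 6.77 ± 2.15 CPM in controls and 3.62 ± 1.21 CPM in deficient samples (SD, n = 3), 53.5% of control. Kctd15 passed the threshold narrowly, with a log2 fold change of −0.90 (SE 0.30, adjusted p = 0.0978 in edgeR), and 9.08% of tested genes had a lower one. The exact permutation test gave p = 0.2.

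**Figure D1:**
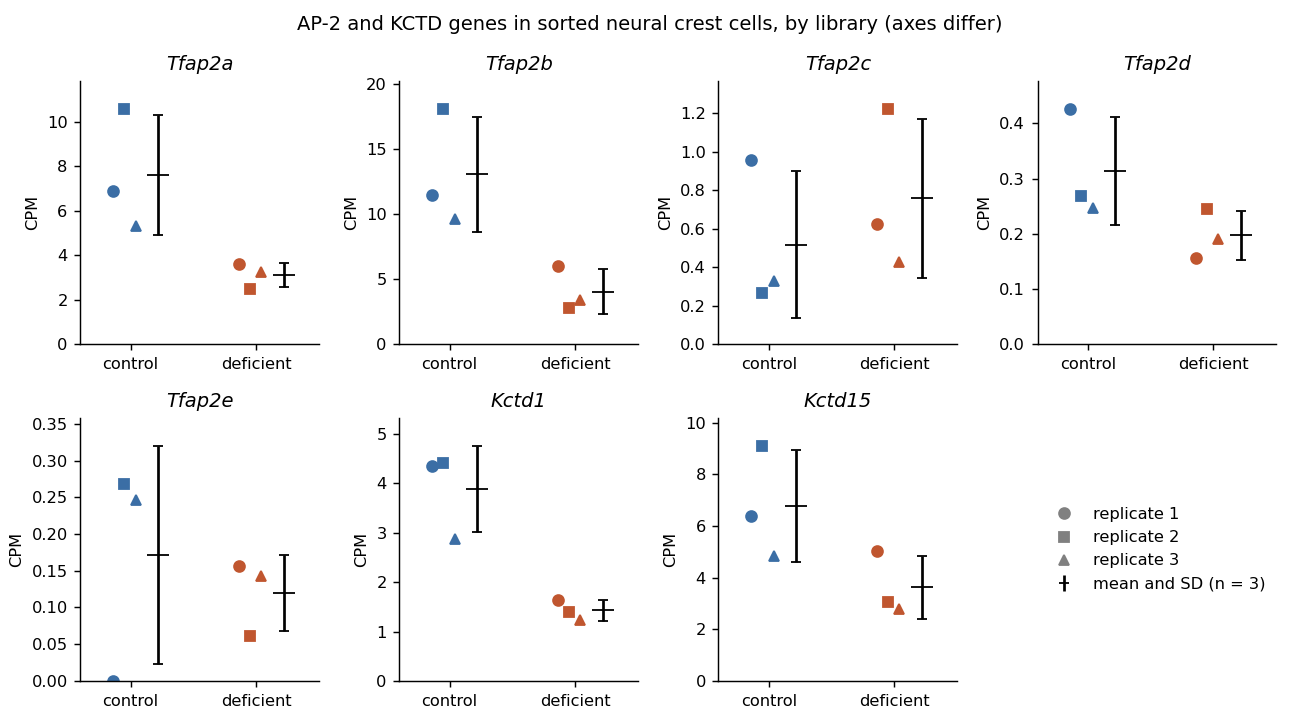
Level of each of the 7 genes in each library (y axis, CPM on TMM-normalized library sizes; circle, square and triangle are replicates 1 to 3 of control and deficient; bars are mean and SD, n = 3, and axes differ between genes). The deficient points of Tfap2a, Tfap2b and Kctd1 all sit below the controls, those of Kctd15 overlap them, and Tfap2c, Tfap2d and Tfap2e stay below 1.3 CPM.

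None of these 4 calls held in every fit with 1 library left out. Without control 1, control 2 or deficient 3, no member was called by edgeR, with adjusted p of 0.214, 0.126 and 0.210 for Tfap2b, 0.214, 0.181 and 0.150 for Tfap2a, 0.215, 0.152 and 0.168 for Kctd1, and 0.258, 0.312 and 0.308 for Kctd15. Without deficient 2, Tfap2a (adjusted p = 0.100432) and Kctd15 (adjusted p = 0.203, edgeR) also lost their calls. Over all tested genes, edgeR called 689 with all 6 libraries. It called 0 without control 1, 61 without control 2, 17 without deficient 3 and 264 without deficient 2. The log2 fold change itself stayed below 0 in all 6 such fits, between −2.07 and −1.40 for Tfap2b, −1.48 and −0.97 for Tfap2a, −1.63 and −1.33 for Kctd1, and −1.19 and −0.64 for Kctd15.

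The other 3 AP-2 paralogs were close to the detection limit and did not pass the filter on low counts. Tfap2c, best known from trophoblast, germ cells and surface ectoderm (ENSMUSG00000028640.11, GRCm38 chr2:172549593-172558622, plus strand), had 9, 2 and 4 counts in controls and 8, 20 and 9 in deficient libraries. The deficient group as a whole held 1.43 times the control level, with an exact 95% interval of 0.765 to 2.80 that covers counting error only and includes no change. Tfap2d, known from the midbrain and retina (ENSMUSG00000042596.7, GRCm38 chr1:19103022-19166346, plus strand), had 4, 2 and 3 counts in controls and 2, 4 and 4 in deficient libraries. Tfap2e, known from the olfactory bulb (ENSMUSG00000042477.7, GRCm38 chr4:126716006-126736240, minus strand), had 0, 2 and 3 counts and 2, 1 and 3 counts. The ratios of the groups were 0.643 (0.235 to 1.79) for Tfap2d and 0.695 (0.177 to 2.88) for Tfap2e, both with exact 95% intervals that include 1. On the CPM scale Tfap2d was 0.425, 0.268 and 0.246 in controls and 0.157, 0.244 and 0.190 in deficient libraries, without overlap (exact permutation p = 0.1), but these levels rest on 2 to 4 counts each and the nearest pair differed by 0.246 against 0.244 CPM. In the edgeR fit with no filter on low counts, the log2 fold changes were 0.58 for Tfap2c (SE 0.63, adjusted p = 0.661), −0.58 for Tfap2d (SE 0.97, adjusted p = 0.751) and −0.44 for Tfap2e (SE 1.24, adjusted p = 0.874). Tfap2c also passed the filter in 4 of the fits with 1 library left out, with log2 fold changes of 0.23 to 0.84 and an adjusted p of 0.555 or more in edgeR. Tfap2d and Tfap2b lie next to each other on chromosome 1 in the same direction, 42567 bases apart with 0 annotated genes between them, yet only Tfap2b was above the filter.

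Compared per kilobase of exon, the order of levels in controls was Tfap2b (2.06 ± 0.701 CPM per kilobase), Kctd15 (1.60 ± 0.508), Tfap2a (1.55 ± 0.548) and Kctd1 (0.490 ± 0.111), with Tfap2d, Tfap2c and Tfap2e at 0.160 or less (SD, n = 3). Tfap2b was above Kctd15 in each of the 3 controls although their ranges overlapped, and Kctd15 and Tfap2a exchanged places between libraries. Kctd1 did not overlap its neighbours. In deficient samples Kctd15 came first at 0.855 ± 0.286 CPM per kilobase, above Tfap2b (0.639 ± 0.275) in 3 of 3 libraries. Tfap2a (0.635 ± 0.114) did not differ from Tfap2b beyond the spread, and Tfap2c (0.206 ± 0.112) and Kctd1 (0.180 ± 0.0260) overlapped.

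Ratios of counts within a library need no scaling between libraries. Of 6 ratios computed between members, Kctd15 to Tfap2b was 0.556, 0.504 and 0.504 in controls and 0.831, 1.11 and 0.831 in deficient samples. The repressor thus stood at 0.521 ± 0.0298 counts per count of Tfap2b in controls and at 0.924 ± 0.162 in deficient samples, without overlap. Summed Kctd1 and Kctd15 counts per AP-2 count were 0.543, 0.459 and 0.490 in controls and 0.630, 0.658 and 0.548 in deficient samples, again higher in each deficient library. The nearest pair was 0.543 in control 1 and 0.548 in deficient 3. Between the 2 repressors, Kctd1 per Kctd15 count was 0.683, 0.485 and 0.593 in controls and 0.328, 0.460 and 0.441 in deficient samples, lower in each deficient library. Tfap2b per Tfap2a count was 1.66, 1.71 and 1.80 in controls and 1.67, 1.10 and 1.04 in deficient samples, and Kctd15 per Tfap2a count was 0.923, 0.861 and 0.908 and 1.39, 1.22 and 0.868. Both of these ratios overlapped between the groups because of 1 deficient library each. Kctd1 per Tfap2a count was 0.529 ± 0.107 in controls and 0.467 ± 0.0897 in deficient samples (SD, n = 3), also with overlap. For any non-overlapping ratio of 3 against 3 libraries the exact two-sided permutation p is 0.1, before any adjustment for the 6 ratios. Counting error of the ratios was not computed.

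The AP-2 genes together held 186, 220 and 192 counts in controls and 135, 111 and 155 in deficient samples. Tfap2b made up 58.1%, 61.4% and 60.9% of them in controls and 57.0%, 40.5% and 45.8% in deficient samples, a lower share in each deficient library. The nearest pair, 58.1% in control 1 and 57.0% in deficient 1, rests on 108 of 186 and 77 of 135 counts. Counting error of the shares was not computed. The share of Tfap2a was 34.9%, 35.9% and 33.9% in controls and 34.1%, 36.9% and 43.9% in deficient samples, with overlap. Tfap2c made up 4.84%, 0.909% and 2.08% in controls and 5.93%, 18.0% and 5.81% in deficient samples. Its share was higher in each deficient library, but it rests on 2 to 20 counts per library.

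**Figure D2:**
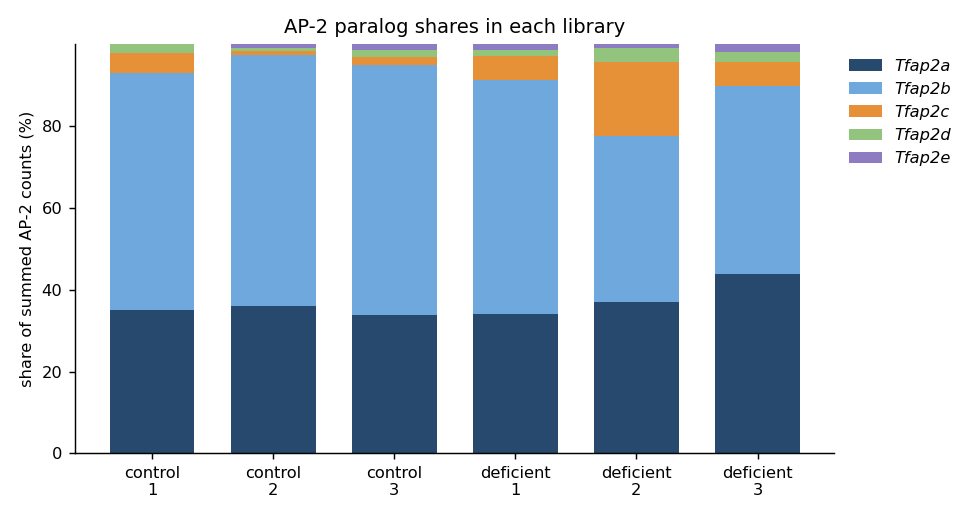
Share of all AP-2 counts held by each paralog in each library (y axis, percent of the summed counts of the 5 AP-2 genes). Tfap2b takes 58.1% to 61.4% of the counts in controls and 40.5% to 57.0% in deficient libraries.

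The summed embryonic markers were themselves lower in each deficient library, and levels were therefore also expressed per 100 CPM of the 75 embryonic markers, which exclude the members. On that scale Tfap2b was 2.17, 2.58 and 2.41 in controls and 1.64, 0.935 and 1.26 in deficient samples. Tfap2a was 1.31, 1.51 and 1.34 in controls and 0.980, 0.852 and 1.21 in deficient samples, and Kctd1 was 0.824, 0.630 and 0.721 and 0.447, 0.478 and 0.463. These 3 genes were thus lower in each deficient library, by less than on the CPM scale. The nearest pair for Tfap2a was 1.31 in control 1 and 1.21 in deficient 3. The share of all tested genes with that pattern was not computed on this scale. Kctd15 was 1.21, 1.30 and 1.21 in controls and 1.36, 1.04 and 1.05 in deficient samples, with overlap. Tfap2c was 0.1005 ± 0.0731 and 0.249 ± 0.144, Tfap2d 0.0601 ± 0.0212 and 0.0656 ± 0.0208, and Tfap2e 0.0333 ± 0.0312 and 0.0389 ± 0.0166 (SD, n = 3), and the groups of all 3 overlapped, those of Tfap2d included. When libraries were scaled in the fit to the median of the 42 embryonic markers of at least 2 CPM, the median over all tested genes moved on the log2 scale from −0.02 to 0.78. Under that scaling Tfap2b was called at −0.83 (SE 0.37, adjusted p = 0.0750), whereas Tfap2a (−0.38, adjusted p = 0.386), Kctd1 (−0.60, adjusted p = 0.223) and Kctd15 (−0.06, adjusted p = 0.903, all edgeR) were not. The cutoff was easier to pass there. An adjusted p of 0.1 or less was reached by 7669 of 13961 tested genes, against 1665 with TMM scaling. That was more than the 7417 genes with an unadjusted p under 0.05 in edgeR under the embryonic scaling.

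**Figure D3:**
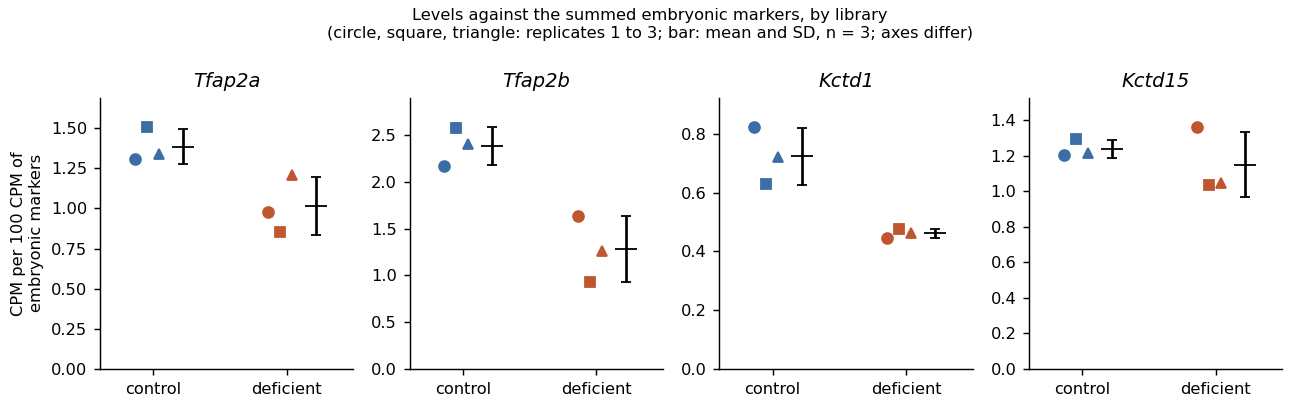
Level of the 4 tested members per 100 CPM of the summed embryonic markers (y axis; circle, square and triangle are replicates 1 to 3; bars are mean and SD, n = 3; axes differ). Tfap2a, Tfap2b and Kctd1 are lower in each deficient library, and Kctd15 overlaps.

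**Figure D4:**
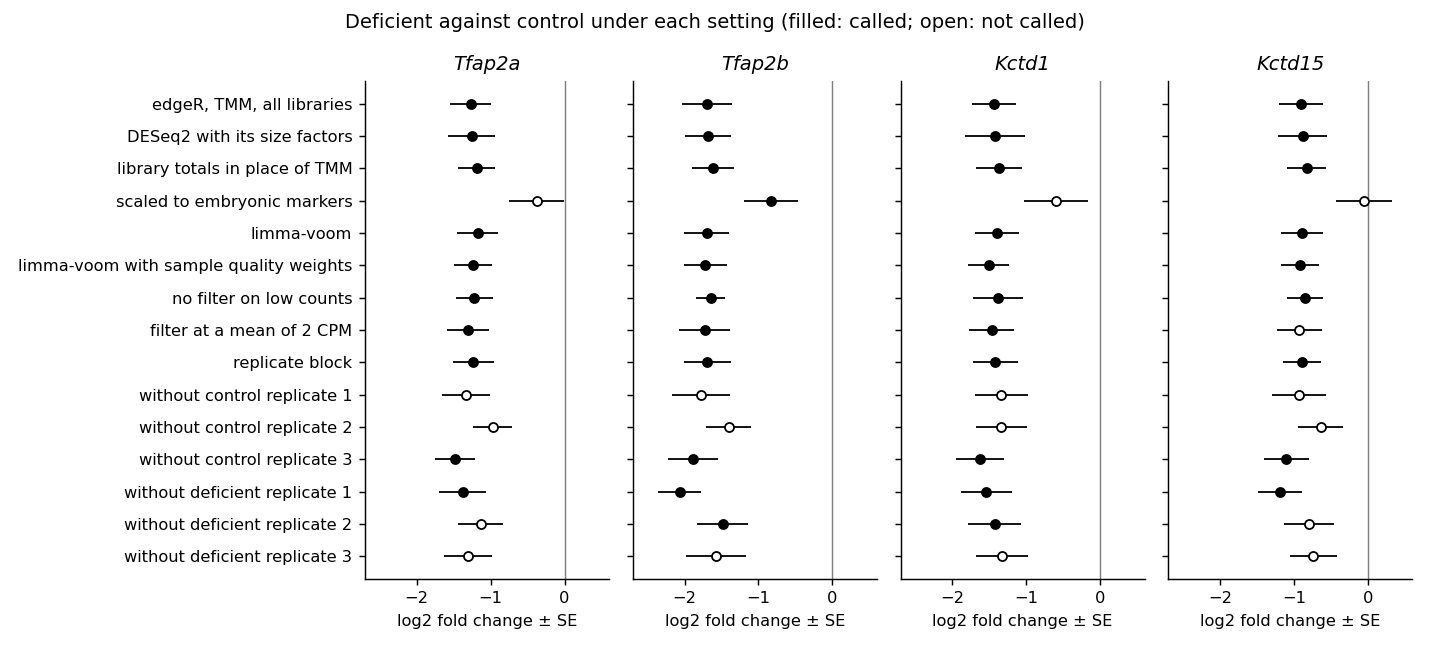
Log2 fold change (x axis, deficient over control) of the 4 tested members under each way of processing, 1 row per setting. All values lie below 0, and the points nearest to 0 come from scaling to the embryonic markers.

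Surface ectoderm also expresses AP-2 genes, and its markers were near the detection limit. Of 16 listed epithelial and ectodermal markers 1 passed the filter (Perp, log2 fold change −0.51, adjusted p = 0.367 in edgeR), and the defining keratins Krt5, Krt14 and Krt15 had 1, 2 and 1 counts over all 6 libraries. The summed level of the list was 5.74 to 7.36 CPM in controls and 3.21 to 3.85 CPM in deficient samples. The 12 macrophage markers had a median of 0.19 on the log2 fold change scale, with 0 called, and 9 had an unadjusted p under 0.05 in edgeR and 11 in DESeq2. Over all 13961 tested genes, 3813 had an unadjusted p under 0.05 in edgeR and 3260 in DESeq2. When libraries were scaled to the embryonic markers, all 12 macrophage markers were called higher, with a median of 0.97 beside 0.78 over all tested genes. Of all 13961 tested genes, 7165 were called higher under that scaling. The 9 listed erythroid markers ranged in sum from 18.1 to 68.8 CPM in controls and from 11.2 to 17.8 CPM in deficient samples, and control 2, the library with the highest AP-2 levels, was also the highest in these. Of 5 tested endothelial markers 0 were called, with 1 at an unadjusted p under 0.05 in edgeR and in DESeq2 and a median of 0.06. Under the embryonic scaling 2 were called higher. Their part in the AP-2 differences was not tested.

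Genes that work with AP-2 factors were listed beside the members. Of 8 listed AP-2 cofactors 7 were tested and 0 were called, with 2 at an unadjusted p under 0.05 in edgeR and 0 calls also in DESeq2. Without control 3 or deficient 1 there was 1 call, lower, and scaled to the embryonic markers 3 were called higher, with a median of 0.73 beside 0.78 over all tested genes. Over all tested genes, 1245 were called without control 3 and 1037 without deficient 1. Under the embryonic scaling 7165 of 13961 were called higher. Ep300, an acetyltransferase recruited by AP-2, was at 84.1 ± 3.99 CPM in controls and 78.2 ± 9.12 CPM in deficient samples (log2 fold change −0.10, adjusted p = 0.454 in edgeR). Cited2, the coactivator that bridges AP-2 and the acetyltransferases, was at 52.1 ± 3.98 and 54.5 ± 1.07 CPM (log2 fold change 0.06, adjusted p = 0.637 in edgeR). Crebbp, the paralog of Ep300, was singled out after its values were seen. It was at 52.2 ± 8.71 and 35.9 ± 4.74 CPM, with an adjusted p of 0.0780 in edgeR but a log2 fold change of −0.54 inside the fold threshold. The median of the list was −0.10, beside −0.02 over all tested genes.

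Other genes of the KCTD family and their BTB-domain relatives were also read. Of 23 listed, 19 were tested and 0 were called, with 6 below and 13 above a log2 fold change of 0, a median of 0.05, 1 at an unadjusted p under 0.05 in edgeR and 0 calls in DESeq2. Tnfaip1 (39.0 ± 1.07 and 38.0 ± 2.10 CPM), an adaptor of the cullin ubiquitin ligases, had a log2 fold change of −0.04 (adjusted p = 0.788 in edgeR). Kctd20 (37.7 ± 2.54 and 39.0 ± 3.29 CPM) had one of 0.05 (adjusted p = 0.747 in edgeR). Scaled to the embryonic markers, 7165 of all 13961 tested genes were called higher. Of the 19 relatives, 14 were called higher under that scaling, with a median of 0.84 beside 0.78 over all tested genes, and neither Kctd1 nor Kctd15 was called. The difference between these 2 genes and their relatives was not tested.

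The crest specifiers, transcription factors that act with AP-2 at the neural plate border and in early crest, were lower in all 12 tested of 16 listed, and 5 were called. Sox9 fell from 7.09 ± 3.04 to 2.10 ± 0.674 CPM (log2 fold change −1.75, adjusted p = 0.0534 in edgeR). Sox10, the partner SoxE gene of glial and melanocyte precursors, fell from 4.78 ± 2.80 to 1.18 ± 0.316 CPM (−1.99, adjusted p = 0.0625). Twist1 (−1.18), which keeps crest mesenchymal, Msx1 (−1.29), a homeobox gene of the facial primordia, and Mycn (−1.07), a growth regulator, had adjusted p between 0.0647 and 0.0965 in edgeR, and of the 5 only Mycn overlapped between the groups. The median of the list was −0.97, and it was −0.15 when libraries were scaled to the embryonic markers, with 2 genes called lower. Over all tested genes, 80 were called lower under that scaling. Of the tested specifiers, Sox10, Pax3, Pax7, Msx1, Msx2, Twist1, Zic1 and Dlx5 are also embryonic markers. The list median under that scaling is therefore partly set by the scaling itself. Counts called in the list ranged from 0 to 7 with 1 library left out, and were 0 without control 1, control 2 or deficient 3 and 1 without deficient 2. Over all tested genes these fits called 0, 61, 17 and 264.

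Of 24 genes listed as described AP-2 targets, 14 of which also stand in another list used here, 14 were tested. Of these, 11 had a log2 fold change below 0 and 3 above, 7 were called lower and 0 higher, and the median was −0.98. Besides Sox9 and Sox10, the called genes were the frontonasal homeobox genes Alx4 (7.09 ± 4.31 to 1.44 ± 0.167 CPM, log2 fold change −2.26, adjusted p = 0.0483 in edgeR) and Alx1 (4.68 ± 1.41 to 1.89 ± 0.489 CPM, −1.31, adjusted p = 0.0674). They also included Kit (−0.98), the receptor of melanoblasts, Erbb2 (−1.23), a neuregulin receptor, and Mmp2 (−0.94), a matrix protease, with adjusted p between 0.0689 and 0.0826 in edgeR. The 3 genes on the other side, chosen here after their values were seen, were the cell cycle inhibitor Cdkn1a (354 ± 24.8 and 405 ± 12.2 CPM, log2 fold change 0.19, adjusted p = 0.0995), the melanocyte and macrophage factor Mitf (59.1 ± 3.64 and 67.3 ± 1.35 CPM, 0.19, adjusted p = 0.113) and Esr1 (0.15, adjusted p = 0.794 in edgeR). Scaled to the embryonic markers, the list had 3 genes called lower and 3 higher, with a median of −0.12. Over all tested genes, 80 were called lower and 7165 higher under that scaling. Of the 24 listed genes, 5 are mesenchymal and 3 glial embryonic markers, so the scaled median is partly set by the scaling. Counts called in the list were 0 without control 1 or deficient 3, 1 without control 2 and 2 without deficient 2. Over all tested genes these fits called 0, 17, 61 and 264.

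**Figure D5:**
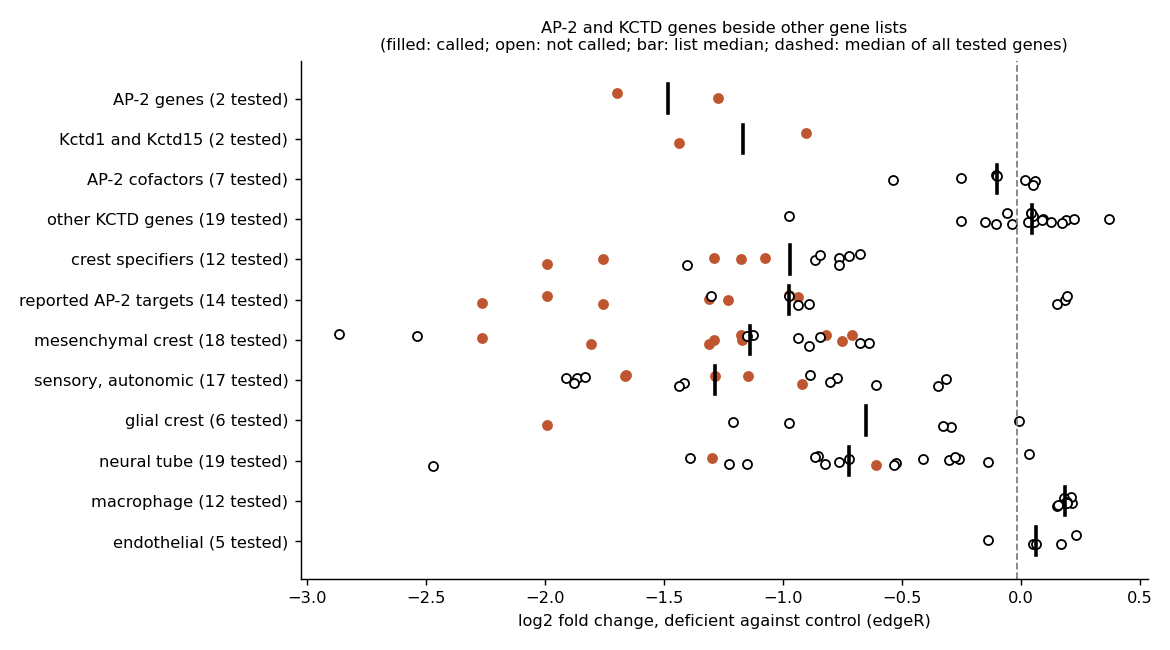
Log2 fold change (x axis, deficient over control) of each tested gene in the members and in the gene lists described in the text, 1 row per list. The members, crest specifiers and described AP-2 targets lie mostly below 0, and the cofactors and KCTD relatives lie around 0.

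Across the 6 libraries, log2 CPM of the 4 tested members correlated with each other at Pearson r between 0.903 (Kctd1 with Kctd15) and 0.973 (Tfap2a with Tfap2b). These 6 points share the difference between the groups, the library scaling and the high values of control 2, and the correlations are given as a description. The genes most like Tfap2a among 10806 searched were Tbx2, a T-box gene (r = 0.999), Rgmb, a BMP co-receptor, and Knop1 (both r = 0.998). Those most like Tfap2b included Raph1 (r = 0.999) and the protocadherin Dchs1 (r = 0.997). Kctd1 was followed by Mpped2 (r = 0.998), Mphosph9 and the heparan sulfatase Sulf1 (both r = 0.996), and Kctd15 by Soga3 (r = 0.999) and the lipid synthesis genes Gpam (r = 0.998) and Fasn (r = 0.996). Between 313 and 515 genes had an r above 0.95 with each member.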

How the data were processed

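Cells sorted as neural crest from 3 control and 3 BAF155- and BAF170-deficient embryos were compared. Per the labels and the methods, the authors made strand-specific poly(A) libraries, used FastQC 0.11.7, cutadapt 1.18, STAR (GRCm38) and featureCounts, and deposited raw counts per gene. The annotation release, the strand setting and the handling of multi-mapping reads are not given in the sources used here, so antisense genes overlapping Tfap2a, Kctd15 and Tfap2d (0 to 6 counts per library each) may share reads with them. Identifiers were matched to GENCODE M21, which named 46488 of 46983 rows.

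Counts were filtered with filterByExpr (minimum count 10, minimum total 15), normalized by TMM and tested with the edgeR 4.0.16 quasi-likelihood test in R 4.3.3, with condition as the only term and Benjamini-Hochberg adjustment over 13961 genes. The common biological coefficient of variation was 12.8%. Standard errors were derived from the F statistic. The members and lists were chosen with earlier results of these data known, and the lists were written by hand. The genes named are the members, Smarcc1 and Smarcc2, the called genes of each list or, where none was called, its 2 most abundant ones, and the 3 genes most correlated with each member (log2 CPM, prior count 2). Other genes were picked after their values were seen, and some genes that the rule names are not reported here. In simulated data of 13694 genes with 200 changed by a log2 fold change of 1.5, edgeR recovered 91.5% with 25 false calls. No 2 libraries of a group agreed within sampling noise (chi-square per degree of freedom 9.34 to 52.8). Alternatives were DESeq2 1.42.0, limma-voom 3.58.1 with and without sample quality weights, other scalings, filters and thresholds, a replicate block and leaving out each library. Depth differed by up to 2.42 times between libraries, and intervals on counts cover counting error only. Ratios, motifs and figures were computed with Python 3.11.15, pandas 2.3.3, scipy 1.17.1 and matplotlib 3.10.9.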

Additional observations from a re-analysis of the deposited data

How the results depend on the processing

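All values of the 4 tested members stayed below 0 under the alternatives run, and no value reversed. Over 14 alternatives the adjusted p ranged from 4.25e-13 to 0.214 for Tfap2b (called in 11), 8.86e-05 to 0.386 for Tfap2a (called in 9), 0.00260 to 0.223 for Kctd1 (called in 10) and 0.0175 to 0.903 for Kctd15 (called in 8). The lowest value of each gene came from 1 setting, edgeR with no filter on low counts (32523 genes). The next lowest for Tfap2b was 2.80e-05 in DESeq2. Scaling to the embryonic markers left 1 member called and moved the count of all genes called from 689 to 7245 (80 lower, 7165 higher), with log2 fold changes of −0.38 for Tfap2a, −0.60 for Kctd1 and −0.057 for Kctd15. A filter at a mean of 2 CPM took the call from Kctd15 (−0.93, adjusted p = 0.113 in edgeR). The count over all genes was 1278 with limma-voom and sample quality weights and 1476 without a fold threshold. At an adjusted p of at most 0.05 it was 94, with 0 members called by edgeR. All 4 had an unadjusted p under 0.05 in edgeR, as did 3813 of all 13961 tested genes. Leaving out 1 library gave 0 to 1245 genes and 0 to 4 members called, with log2 fold changes of −1.48 to −0.97 for Tfap2a, −2.07 to −1.40 for Tfap2b, −1.63 to −1.33 for Kctd1 and −1.19 to −0.64 for Kctd15. The 0 was without control 1, where 2547 genes had an unadjusted p under 0.05 in edgeR. Such fits have fewer samples, as had those without control 3 and without deficient 1, where 1245 and 1037 genes were called. The cause of a lost call was not tested.

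With the replicate number as a block, 1164 genes and all 4 members were called. Whether the numbers pair the samples was not settled. Same-numbered deviations correlated at 0.0415, −0.0667 and 0.381. Control 1 (0.0678 with deficient 2) and control 2 correlated best with deficient libraries of another number, and control 3 with deficient 3. The deviations were centred within each group of 3, which constrains these correlations, so they cannot decide it.

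Depth limits Tfap2c, Tfap2d and Tfap2e, with 37 counts or fewer per group, and the 4 tested members rest on 21 to 135 counts per library.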

Other observations

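With TMM scaling, the called genes of the marker lists were lower. Of 18 tested mesenchymal crest markers 9 were called, with a median log2 fold change of −1.14. Beside Alx1, Alx4, Msx1 and Twist1 they were Foxd1 (−1.81), Pdgfra (−1.17), Prrx1 (−0.82), Col1a2 (−0.75) and Col1a1 (−0.71). Of 17 tested sensory and autonomic markers 5 were called, among them the neuronal genes Stmn2 (−1.66), Neurod4 (−1.66), Isl1 (−1.28) and Elavl4 (−1.15), with a list median of −1.28. Of 6 tested glial markers only Sox10 was called (median −0.65), and of 19 tested neural tube markers Sox3 (−1.30) and Nes (−0.61) were called (median −0.72). These log2 fold changes passed an adjusted p of 0.1 in edgeR. Leaving out 1 library moved the counts called, in the lists and over all tested genes. Over all tested genes, 0 were called without control 1, 61 without control 2 and 1245 without control 3. Without deficient 1, 2 and 3 the counts were 1037, 264 and 17. Of the mesenchymal markers, 0 were called without control 1 or deficient 3, and 1 without control 2 or deficient 2. Of the sensory and autonomic markers, 0 were called without control 1, control 2 or deficient 3, 1 without deficient 2 and 10 without control 3. Of the glial and of the neural tube markers, 0 were called without control 1, control 2, deficient 2 or deficient 3, whereas 3 of each were called without control 3, and 3 glial and 5 neural tube markers without deficient 1. Scaled to the embryonic markers, which are these 4 lists themselves, 1 mesenchymal, 0 sensory or autonomic, 1 glial and 0 neural tube markers were called lower and 1 glial and 1 neural tube marker higher, with medians of −0.23, −0.38, 0.19 and 0.14. Over all tested genes, 80 were called lower and 7165 higher under that scaling. Of 8 tested erythroid markers 0 were called (median −1.11), with 3 at an unadjusted p under 0.05 in edgeR and 3 called lower in DESeq2. Without control 3, 4 were called lower, and scaled to the embryonic markers 2 were called lower and 1 higher.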
